A study of Mus musculus with 11 samples.

Results

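The 10 genes described here set the pace of the first gap phase of the cell cycle. They are 5 inhibitors of cyclin-dependent kinases (Cdkn2c, Cdkn2d, Cdkn1a, Cdkn1b and Cdkn1c), 3 D-type cyclins (Ccnd1, Ccnd2 and Ccnd3) and the kinases Cdk4 and Cdk6. They were taken by gene symbol from the table of raw read counts, as 10 of its 55291 symbols. RNA was sequenced from LSK cells, the bone marrow fraction sorted as negative for lineage markers and positive for cKit and Sca-1, in which blood stem cells and multipotent progenitors lie. By their labels, the libraries came from individual C57BL/6 mice of 3 genotypes: mice labelled Phf6 R274X Tg (Tg, n = 4), Phf6 knockout mice (KO, n = 3) and wild-type mice (WT, n = 4). Phf6, on the X chromosome, encodes a chromatin protein, and R274X names a change to a stop codon in it. The promoter behind the Tg allele, the driver of the knockout, and the ages and sexes of the mice are not stated in the labels.

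D-type cyclins bind Cdk4 and Cdk6, and the active kinases phosphorylate the retinoblastoma protein and its relatives, which frees E2F factors to drive genes of DNA replication. The INK4 inhibitors, among them the products of Cdkn2c and Cdkn2d, bind Cdk4 and Cdk6 themselves, while the CIP/KIP inhibitors encoded by Cdkn1a, Cdkn1b and Cdkn1c act on complexes of cyclins with several kinases. In the bone marrow, most long-term stem cells rest outside the cycle while progenitors divide, and p57, the product of Cdkn1c, is known for its part in that resting state.

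Library totals lay between 28943998 and 41301982 counts in Tg, 30418368 and 45632018 in KO, and 20990446 and 31130936 in WT. The 10 genes had between 88 and 80685 counts in a library, and all 10 were among the 17183 genes that passed the filter on low counts. Phf6 itself had 182.6 to 277.7 CPM (counts per 1000000 counts of the library, with TMM factors) in Tg and 15.4 to 23.96 CPM in KO, against 109.9 to 141.9 CPM in WT. Kit and Ly6a, the genes of cKit and Sca-1, were read in every library, and with Flt3, Cd34 and Ptprc, progenitor and blood cell genes that were not part of the sort, they had a summed level of 1900 to 2471 CPM in Tg, 2170 to 2441 CPM in KO and 2058 to 2692 CPM in WT. The 7 mature lineage genes summed to 8.63 to 23.4 CPM in Tg, 20.9 to 47.2 in KO and 12.2 to 80.9 in WT. The 4 plasma cell genes summed to 126.5 to 176.3 CPM in Tg, 263.8 to 313.0 in KO and 148.3 to 571.7 in WT. In the same order, 6 macrophage genes summed to 17.5 to 112.7, 23.4 to 100.8 and 26.7 to 196.8 CPM. The 4 megakaryocyte genes summed to 139.4 to 214.1, 52.2 to 97.2 and 78.2 to 149.9 CPM. The 5 erythroid genes summed to 5.71 to 16.1, 17.9 to 23.3 and 10.2 to 32.4 CPM. Xist, the transcript of the inactive X chromosome, stood at 0.0307 to 0.297 CPM in Tg, against 32.7 to 40.3 CPM in KO and 50.02 to 53.8 CPM in WT. The 4 Y-linked genes read summed to 49.9 to 367.4 CPM in Tg. In KO replicate 1 and WT replicates 1 and 2, Xist and Y-linked reads stood together, each at 10% or more of its highest library, and WT replicate 4 held 20.96 CPM of Y-linked reads. Whether each of these libraries holds RNA of a single mouse, as the labels say, was not tested. A difference between Tg and the other genotypes cannot be told apart from one between libraries with and without Xist.

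Among the inhibitors, Cdkn2c was the only gene called, and no test set it against the other inhibitors. It encodes p18, an INK4 protein that holds Cdk4 and Cdk6 inactive. Cdkn2c had 26.6, 22.8, 26.5 and 25.7 CPM in Tg libraries, against 46.9, 38.9 and 40.2 CPM in KO libraries and 31.6, 41.8, 47.3 and 32.0 CPM in WT libraries. All 4 Tg libraries lay below every KO and every WT library, and they were also the closest together, with a mean of 25.4 ± 1.76 CPM in Tg (SD, n = 4), 42.0 ± 4.31 CPM in KO (n = 3) and 38.2 ± 7.71 CPM in WT (n = 4). Cdkn2c fell by 0.59 on the log2 scale in Tg against WT (SE 0.13, 0.665-fold, 95% interval 0.543 to 0.815, adjusted p = 0.0333, from the quasi-likelihood test of edgeR). It fell by 0.73 in Tg against KO (SE 0.14, 0.605-fold, 95% interval 0.487 to 0.752, adjusted p = 0.0169). KO and WT overlapped, with a log2 fold change of 0.14 in KO against WT (SE 0.14, adjusted p = 0.879) and an interval of 0.884- to 1.37-fold. Since RNA was taken from a sorted population, fewer cells with the transcript and less of it in each cell cannot be told apart.

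The call in Tg against WT was lost when any one of 4 libraries was left out: the adjusted p was 0.0828 without Tg replicate 1, 0.0945 without Tg replicate 2, 0.0575 without Tg replicate 4 and 0.0871 without WT replicate 2, while the log2 fold change of Cdkn2c stayed between -0.68 and -0.48 over all 11 such fits. In Tg against KO the call was lost without KO replicate 1, at a log2 fold change of -0.64 and an adjusted p of 0.0756. Without the 3 libraries that held both Xist and Y-linked reads, Cdkn2c had a log2 fold change of -0.64 in Tg against WT (adjusted p = 0.205) and of -0.64 in Tg against KO (adjusted p = 0.0752).

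The sequences before the transcription starts of Cdkn2c and of its INK4 relative Cdkn2d are shown because the first was called in both comparisons with Tg and the second in neither. They are the 250 bases upstream of each start, on the minus strand, from RefSeq (GRCm38.p6). Cdkn2c has 2 annotated starts, with windows at chr4:109666757-109667006 and chr4:109665373-109665622, and Cdkn2d has one, with its window at chr9:21291210-21291459. Capitals mark the GC box GGGCGG or its reverse complement CCGCCC.
Cdkn2c window 1: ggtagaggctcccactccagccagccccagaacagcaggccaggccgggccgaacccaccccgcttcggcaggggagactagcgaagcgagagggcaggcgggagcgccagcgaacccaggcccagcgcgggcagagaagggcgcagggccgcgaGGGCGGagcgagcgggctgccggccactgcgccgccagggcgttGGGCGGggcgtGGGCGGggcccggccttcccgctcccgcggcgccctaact
Cdkn2c window 2: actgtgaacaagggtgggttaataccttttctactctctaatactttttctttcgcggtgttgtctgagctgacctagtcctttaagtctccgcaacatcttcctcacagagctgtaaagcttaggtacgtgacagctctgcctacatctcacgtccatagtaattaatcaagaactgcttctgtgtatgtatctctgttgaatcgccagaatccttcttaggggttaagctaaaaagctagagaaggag
Cdkn2d window 1: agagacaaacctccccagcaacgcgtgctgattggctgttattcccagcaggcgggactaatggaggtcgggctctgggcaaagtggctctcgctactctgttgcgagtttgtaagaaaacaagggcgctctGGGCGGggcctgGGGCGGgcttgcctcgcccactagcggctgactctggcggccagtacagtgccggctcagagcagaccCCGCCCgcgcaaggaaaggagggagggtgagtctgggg
Cdkn2c window 1 was 77.2% G and C and held 3 GC boxes, and Cdkn2d window 1 was 63.6% G and C and also held 3. Cdkn2c window 2 was 42.8% G and C and held none. The E2F words TTTGGCGC, TTTCGCGC, TTTCCCGC and TTTGCCGC, the CHR words TTTGAA and TTCGAA and the E-box CACGTG, searched on both strands, were in none of these 3 windows. Over the 7 of 10 members with a RefSeq window (10 windows, none for Cdkn1c, Ccnd1 and Ccnd2), 0 held an E2F word and 0 a CHR word, where 2.16% and 19.6% of 27025 genes with a window did. A GC box was found in 6 of the 7 (35.4% of all genes) and an E-box in 2, Cdk4 with 4 and Cdk6 with 1 (6.86% of all genes). The Cdkn2c gene itself spans chr4:109660876-109667189 and Cdkn2d chr9:21288410-21291407, both on the minus strand (GENCODE M21, GRCm38). Both Cdkn2c windows and most of the Cdkn2d window thus lie inside the genes as GENCODE annotates them. The bases upstream of the GENCODE start of Cdkn2c were not searched.

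**Figure D1:**
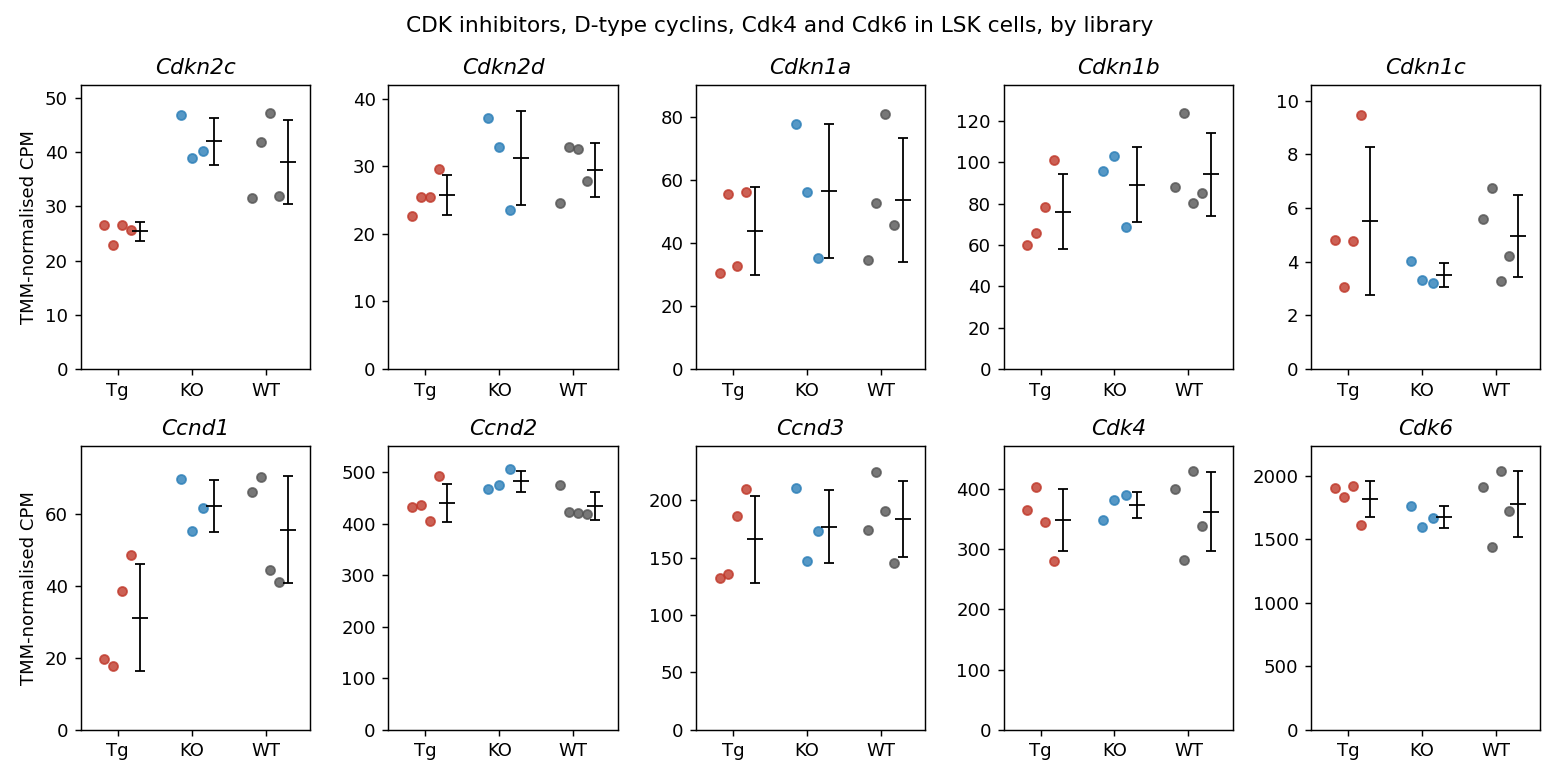
Level of each of the 10 genes in TMM-normalised CPM (vertical axes from 0), 1 point per library, with the group's mean and SD as a bar to its right, for Tg (n = 4), KO (n = 3) and WT (n = 4). Cdkn2c lies at 22.8 to 26.6 CPM in Tg, below all KO and WT libraries, and Ccnd1 splits the Tg libraries into a pair at 17.8 and 19.6 CPM and a pair at 38.4 and 48.4 CPM.

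The other 4 inhibitors did not pass the test in any comparison. Cdkn2d, which encodes the INK4 protein p19, had 22.6, 25.4, 25.4 and 29.6 CPM in Tg libraries, against 37.1, 32.9 and 23.6 CPM in KO libraries and 24.6, 32.8, 32.5 and 27.8 CPM in WT libraries. The groups overlapped, and the log2 fold change was -0.19 in Tg against WT (adjusted p = 0.496), -0.28 in Tg against KO (adjusted p = 0.354) and 0.09 in KO against WT (adjusted p = 0.942), by the quasi-likelihood test of edgeR. The interval of Cdkn2d in Tg against WT was 0.697- to 1.10-fold.

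Cdkn1a encodes p21, an inhibitor that p53 induces after DNA damage. It had 30.5, 55.8, 32.8 and 56.2 CPM in Tg libraries, against 77.9, 56.4 and 35.3 CPM in KO libraries and 34.8, 52.9, 81.0 and 45.8 CPM in WT libraries. The spread within groups was wide, with a highest library 1.84 times the lowest in Tg, 2.21 times in KO and 2.33 times in WT. The log2 fold changes were -0.29 in Tg against WT (SE 0.31, adjusted p = 0.63), -0.37 in Tg against KO (SE 0.33, adjusted p = 0.581) and 0.08 in KO against WT (SE 0.33, adjusted p = 0.982), so that changes between 0.511- and 1.31-fold in Tg against WT lie within the interval.

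Cdkn1b encodes p27, which is lost as cells leave the resting state. It had 59.7, 65.8, 78.2 and 100.8 CPM in Tg libraries, against 95.6, 103.0 and 68.5 CPM in KO libraries and 88.0, 123.9, 80.1 and 84.9 CPM in WT libraries. Tg replicates 1, 2 and 3 lay below all 4 WT libraries and Tg replicate 4 lay above 3 of them. The log2 fold change was -0.31 in Tg against WT (SE 0.19, adjusted p = 0.381), -0.23 in Tg against KO (SE 0.21, adjusted p = 0.587) and -0.08 in KO against WT (SE 0.21, adjusted p = 0.961).

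Cdkn1c, the lowest of the 10 also per length, had 4.80, 3.05, 4.76 and 9.46 CPM in Tg libraries, against 4.02, 3.30 and 3.18 CPM in KO libraries and 5.59, 6.73, 3.27 and 4.22 CPM in WT libraries. Tg replicate 4 stood highest, at 3.11 times Tg replicate 2, while the 3 KO libraries were within 1.26 times of each other. The 10 genes of long-term stem cells summed to 722.0, 647.3, 760.7 and 1133 CPM in Tg libraries, against 692.5, 592.6 and 701.9 CPM in KO libraries and 879.2, 725.1, 504.3 and 773.7 CPM in WT libraries, and Tg replicate 4 was the highest in this sum too. Of the 10, 1 rose in Tg against KO, where 2.63% of the genes tested did. In Tg against WT and in KO against WT 0 were called, beside 4.92% and 0.0233% of the genes tested. The part of long-term stem cells in the Cdkn1c values was not tested. The log2 fold change of Cdkn1c was 0.15 in Tg against WT (SE 0.33, adjusted p = 0.834), 0.65 in Tg against KO (SE 0.36, adjusted p = 0.328) and -0.50 in KO against WT (SE 0.36, adjusted p = 0.814). The interval in Tg against KO ran from 0.911- to 2.71-fold. Cdkn2a and Cdkn2b, the other INK4 genes, had 9 and 5 counts over the 11 libraries together, 5 and 4 of them in WT replicate 2, and were too low to test.

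Of the D-type cyclins, Ccnd1 had the largest differences and none was called. It had 19.6, 17.8, 38.4 and 48.4 CPM in Tg libraries, against 69.7, 55.1 and 61.6 CPM in KO libraries and 66.1, 70.3, 44.4 and 41.2 CPM in WT libraries. All 4 Tg libraries lay below all 3 KO libraries, while Tg replicate 4 lay above WT replicates 3 and 4. Ccnd1 averaged 31.1 ± 14.9 CPM in Tg (SD, n = 4), 62.2 ± 7.30 CPM in KO (n = 3) and 55.5 ± 14.9 CPM in WT (n = 4). The log2 fold change was -0.84 in Tg against WT (SE 0.30, 0.558-fold, 95% interval 0.352 to 0.885, adjusted p = 0.133) and in Tg against KO it corresponded to 0.499-fold (SE 0.32 on the log2 scale, 95% interval 0.306 to 0.814, adjusted p = 0.0955), by the quasi-likelihood test of edgeR. It was 0.16 in KO against WT (SE 0.32, adjusted p = 0.944). DESeq2 called Ccnd1 in both comparisons with Tg, at an adjusted p of 0.0396 against WT and of 0.0187 against KO, and edgeR called it in Tg against KO without Tg replicate 4 (log2 fold change -1.30, adjusted p = 0.0395).

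The low Ccnd1 values were those of Tg replicates 1 and 2, which also had the highest summed level of granulocyte-monocyte progenitor genes. The 8 genes of that list summed to 24100, 21657, 4895 and 9636 CPM in Tg libraries, against 3857 to 5001 CPM in KO and 1431 to 3583 CPM in WT. Of these sums, Mpo alone made 15322, 14905, 3451 and 6395 CPM in Tg libraries. Called higher were 6 of the 8 in Tg against WT (2.54% of genes tested) and 3 in Tg against KO (2.63%). In Tg against KO, 6 had a log2 fold change above 0, while Csf1r and Ly86 lay below every KO library in each Tg library. With Tg replicates 1 and 2 left out together, Ccnd1 had a log2 fold change of -0.34 in Tg against WT (adjusted p = 0.635 by edgeR). In Tg against KO it was -0.50 (adjusted p = 0.369). These replicates held the lowest Ccnd1 values and were chosen after the data were seen, so a smaller difference was fixed in advance. The part of cells with these transcripts in the Ccnd1 values was not tested. LTO1, which shares 1100 of the 4709 exon bases of Ccnd1 on the opposite strand, had 17.4 ± 0.537 CPM in Tg, 18.3 ± 0.935 CPM in KO and 18.1 ± 1.60 CPM in WT. Ccnd1 lies at chr7:144929931-144939925 on the minus strand.

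Ccnd2, a D-type cyclin that growth signals induce, had 432, 436, 405 and 493 CPM in Tg libraries, against 467, 476 and 506 CPM in KO libraries and 476, 424, 421 and 420 CPM in WT libraries. It was the steadiest of the 10, with a highest library 1.25 times the lowest over all 11, and the KO libraries overlapped WT only through WT replicate 1. The log2 fold change was 0.02 in Tg against WT (SE 0.08, 95% interval 0.901- to 1.14-fold, adjusted p = 0.913), -0.13 in Tg against KO (SE 0.08, adjusted p = 0.416) and 0.15 in KO against WT (SE 0.08, adjusted p = 0.758). Ccnd3, the cyclin D of lymphoid cells in particular, had 132, 136, 186 and 209 CPM in Tg libraries, against 210, 147 and 173 CPM in KO libraries and 174, 224, 191 and 146 CPM in WT libraries. The groups overlapped, with Tg replicates 1 and 2 the lowest of the 11, and the log2 fold changes were -0.15 in Tg against WT (SE 0.18), -0.09 in Tg against KO (SE 0.19) and -0.06 in KO against WT (SE 0.19), with adjusted p-values of 0.677, 0.836 and 0.975 by edgeR.

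Neither kinase passed the test in any comparison. Cdk6, which is the partner of cyclin D in blood progenitors in particular, had 1906, 1832, 1917 and 1613 CPM in Tg libraries, against 1764, 1592 and 1664 CPM in KO libraries and 1914, 1440, 2038 and 1725 CPM in WT libraries. Cdk4 had 365, 404, 345 and 280 CPM in Tg libraries, against 349, 381 and 391 CPM in KO libraries and 400, 282, 430 and 338 CPM in WT libraries. Both genes overlapped between all groups. Cdk6 had a log2 fold change of 0.03 in Tg against WT (95% interval 0.863- to 1.21-fold, adjusted p = 0.907), 0.12 in Tg against KO (adjusted p = 0.631) and -0.09 in KO against WT (adjusted p = 0.909), by edgeR. Cdk4 had a log2 fold change of -0.06 in Tg against WT (95% interval 0.779- to 1.19-fold, adjusted p = 0.853), -0.10 in Tg against KO (adjusted p = 0.763) and 0.04 in KO against WT (adjusted p = 0.975). Tspan31 overlaps 641 exon bases of Cdk4 and Bysl 361 of Ccnd3, both on the opposite strand, so that reads of these stretches could not be assigned with certainty.

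**Figure D2:**
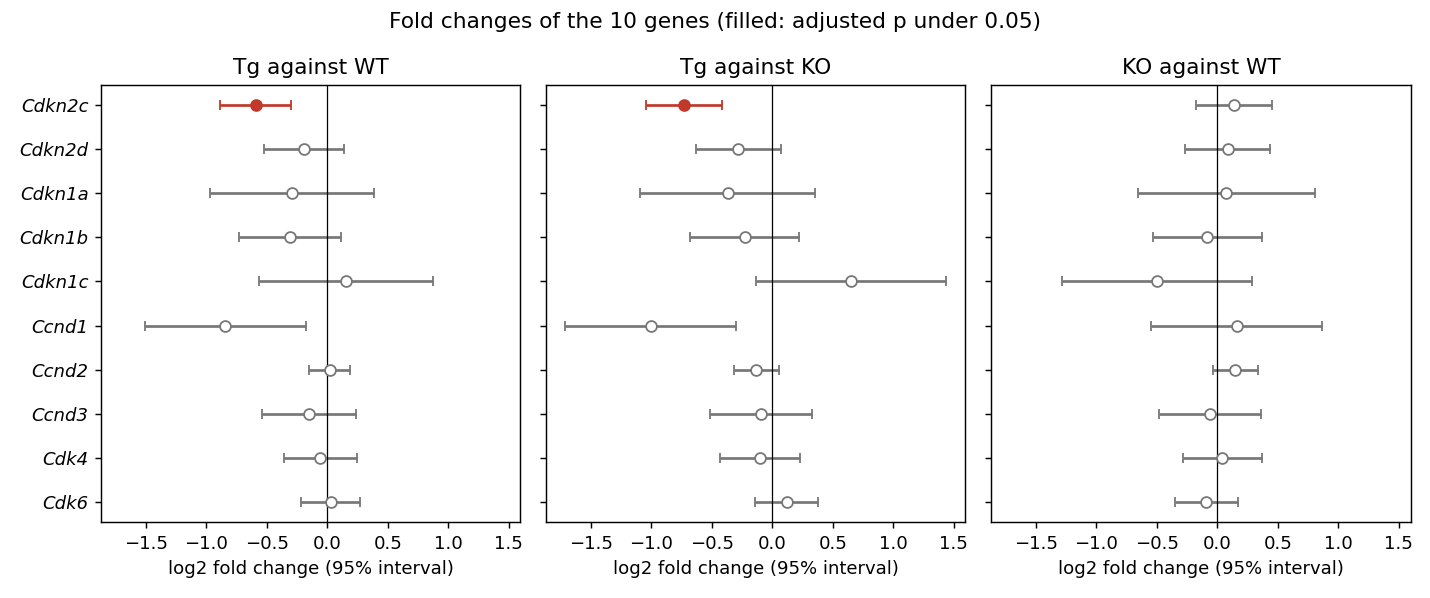
Log2 fold change of each gene (horizontal axis) with its 95% interval in Tg against WT, Tg against KO and KO against WT; filled points passed an adjusted p of 0.05. Cdkn2c is filled in both comparisons with Tg, at -0.59 and -0.73, and the interval of Ccnd1 lies below 0 in both without a call.

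Counted together, 1 of the 10 genes was called lower and 0 higher in Tg against WT, where 2.39% of the genes tested were called lower and 2.54% higher (4.92% in all), and 2 had an unadjusted p under 0.05, as 22.1% of the genes tested did. In Tg against KO, 1 was called lower and 0 higher, where 3.06% and 2.63% of the genes tested were (5.69% in all), and 2 had an unadjusted p under 0.05, as 21.7% of the genes tested did. In KO against WT, 0 were called by edgeR, DESeq2 or limma-voom and 0 had an unadjusted p under 0.05, where DESeq2 called 0.576% and limma-voom 0.00582% of the genes tested, edgeR called 0.0233% of the genes tested (0.00582% higher and 0.0175% lower) and 7.09% had such a p. With 10 genes, 1 call is not a result about the group as a whole. Groups did not overlap for 1 gene in Tg against WT (9.85% of genes tested), 2 in Tg against KO (20.8%) and 0 in KO against WT (7.50%). The median log2 fold change over the 10 was -0.17 in Tg against WT, -0.18 in Tg against KO and 0.06 in KO against WT, beside medians of 0.01, 0.01 and -0.01 over the genes tested. Each pair of comparisons shares the libraries of a group, so the 3 values are not independent.

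Levels of different genes were set side by side per kilobase of merged exons, in CPM per kb. Cdk6 and Cdk4 led, at 129.9 ± 10.1 and 107.3 ± 16.0 in Tg, 119.6 ± 6.17 and 115.0 ± 6.76 in KO, and 127.2 ± 18.6 and 111.6 ± 20.2 in WT, with ranges that overlapped within each group. Ccnd2 followed at 46.9 ± 3.93 in Tg, 51.3 ± 2.17 in KO and 46.3 ± 2.90 in WT, below both kinases in every library of its group. From Ccnd3 (18.9 ± 4.34 in Tg, 20.1 ± 3.63 in KO, 20.9 ± 3.75 in WT) through Cdkn1b, Cdkn2d, Cdkn1a and Cdkn2c to Ccnd1, each gene's range overlapped that of its neighbour in all 3 groups. Cdkn2c and Ccnd1 took the eighth and the ninth place in every group, and Cdkn1c came last at 2.71 ± 1.35 in Tg, 1.72 ± 0.222 in KO and 2.43 ± 0.747 in WT. In Tg the ranges of Ccnd1 and Cdkn1c overlapped. Per kilobase of the transcript matched to RefSeq, the mean of Cdk4 stood above that of Cdk6 and Ccnd3 above Ccnd2 in all 3 groups. The ranges of Ccnd3 and Ccnd2 then overlapped in all 3 groups, and those of Cdk4 and Cdk6 in Tg and WT. The length of Ccnd3 was then 2113 bases in place of 8775.

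**Figure D3:**
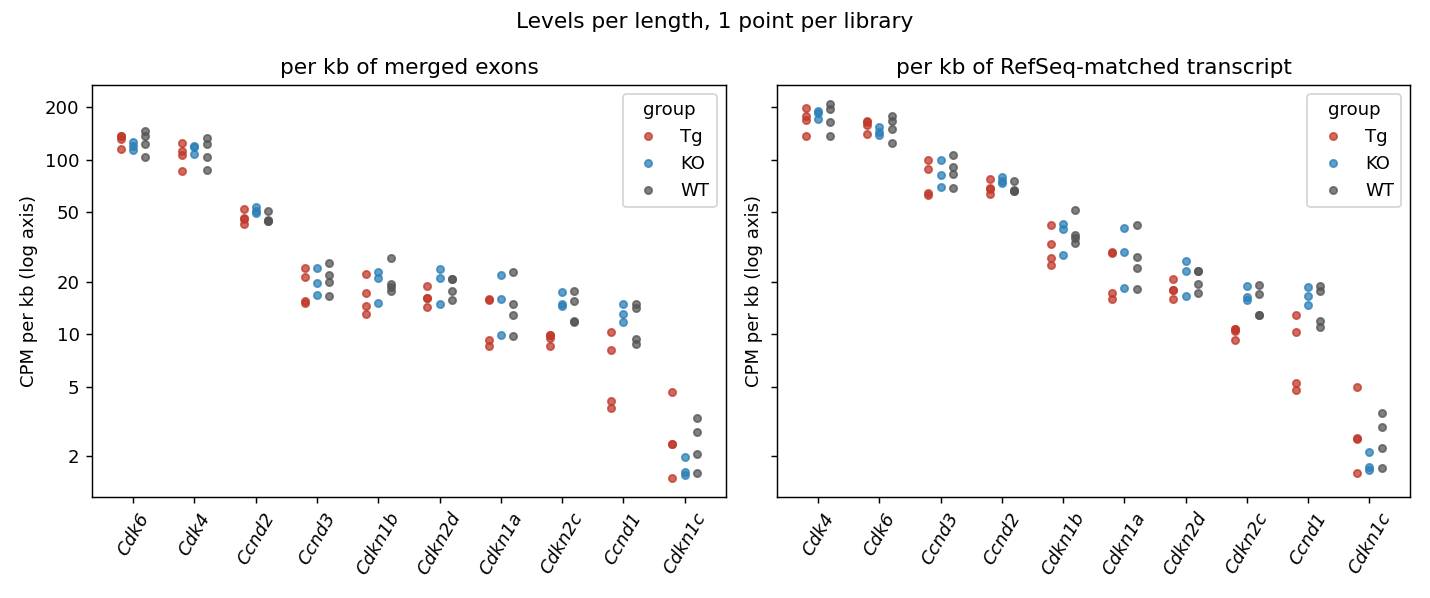
Level of each gene in CPM per kb on a log axis, 1 point per library in Tg, KO and WT, by merged exon length (left) and by the length of the RefSeq-matched transcript (right), ordered by the WT mean. The kinases lie highest and Cdkn1c lowest by both lengths, while the means of Cdk4 and Cdk6, and of Ccnd2 and Ccnd3, change places between the panels.

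Within the D-type cyclins, Ccnd1 made up 6.39%, 5.76%, 11.3% and 11.9% of the summed CPM per kb in Tg libraries, against 16.8%, 14.8% and 15.1% in KO libraries and 16.6%, 17.5%, 12.4% and 12.5% in WT libraries. Every Tg library lay below every other library in this share. Ccnd2 made up 65.3 ± 6.13% in Tg, 60.8 ± 4.11% in KO and 58.8 ± 4.62% in WT, with overlap. Among the inhibitors, Cdkn2c made up 16.8 ± 3.12% in Tg, 22.0 ± 3.93% in KO and 19.9 ± 1.41% in WT, and the Tg libraries overlapped both other groups. Cdk4 made up 45.1 ± 2.63% of the kinase pair in Tg, 49.0 ± 2.63% in KO and 46.6 ± 0.973% in WT. These shares depend on the length used. Per kilobase of the RefSeq-matched transcript, Ccnd2 averaged 45.1% of the D-type cyclins in Tg, 43.5% in KO and 40.7% in WT. Ccnd3 then averaged 49.7%, 47.1% and 50.7%, and Ccnd1 5.12%, 9.40% and 8.61%, in the same order. Cdk4 averaged 51.7%, 55.6% and 53.2% of the kinase pair.

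**Figure D4:**
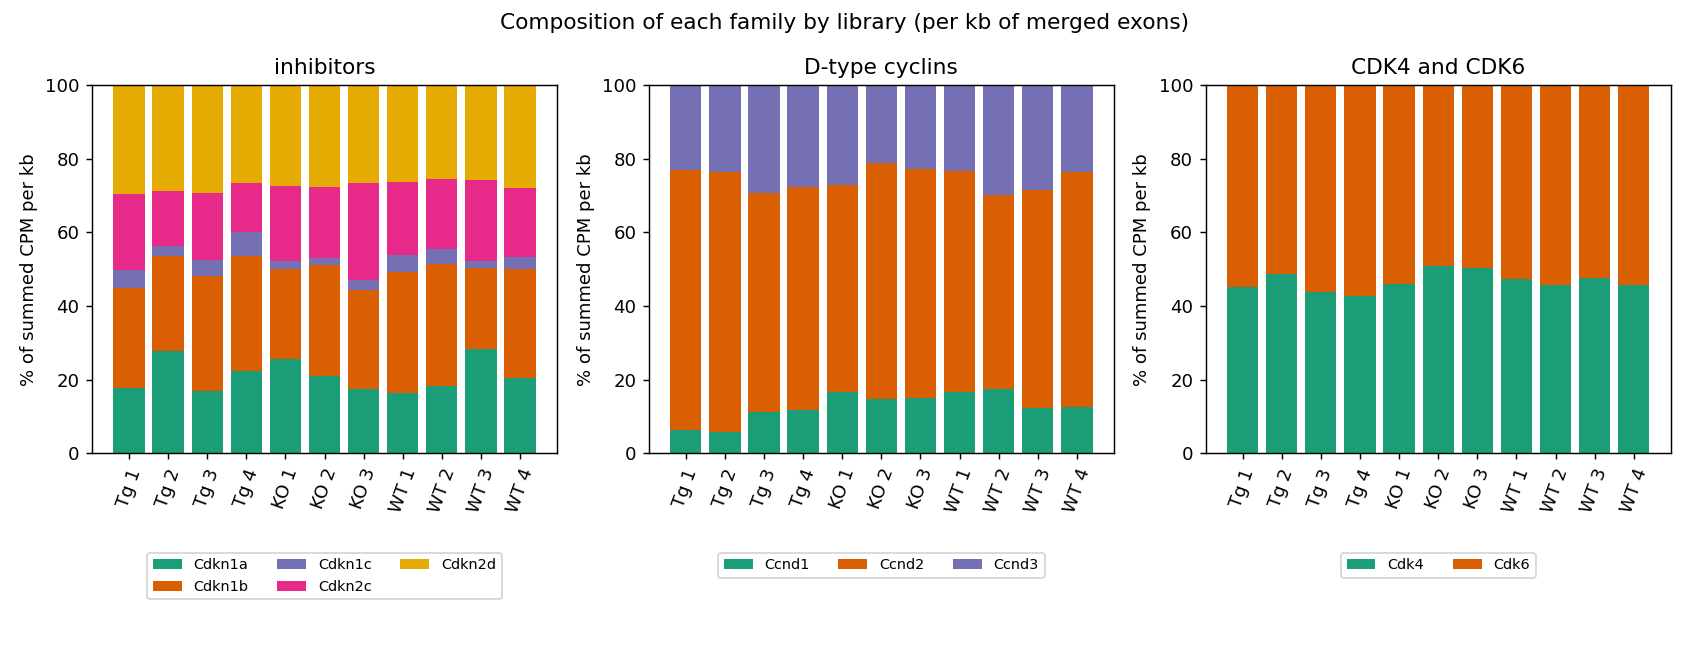
Share of each gene in the summed CPM per kb of merged exons of its family (vertical axis, percent), 1 bar per library in the order Tg, KO, WT. Ccnd1 takes 5.76% to 11.9% of the D-type cyclins in Tg, 14.8% to 16.8% in KO and 12.4% to 17.5% in WT.

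Summed levels of G2 and M phase genes were lower in Tg, as those of Cdkn2c were. The 12 G2 and M phase genes summed to 2302 to 2631 CPM in Tg, 2727 to 3115 CPM in KO and 2870 to 3021 CPM in WT, and 2 of the 12 (Top2a and Nusap1) fell in Tg against both. The 12 genes of S phase summed to 3148 to 3617 CPM in Tg, 3698 to 3881 CPM in KO and 3098 to 4069 CPM in WT, and 1 of them, Pcna, fell in Tg against both. The 6 genes of lymphoid-primed progenitors summed to 357.5 to 481.8 CPM in Tg, 858.1 to 1114 CPM in KO and 675.9 to 1207 CPM in WT, and 5 of the 6 fell in Tg against both. Over all genes tested, 2.39% were called lower in Tg against WT and 3.06% in Tg against KO. No gene of these lists was at 0 in all libraries, and the part of cycling or lymphoid-primed cells in the Cdkn2c values was not tested. The genes most like Cdkn2c over the 11 libraries, by Pearson's r of log2 CPM among 10256 candidates, were the histone genes H2bc7 (r = 0.976) and H4c6 (r = 0.964), and r was 0.933 and 0.917 once each group's mean was removed. H2bc7 had 65.4 ± 4.80 CPM in Tg, 105.0 ± 16.9 CPM in KO and 93.2 ± 19.9 CPM in WT, and fell by 0.68 on the log2 scale in Tg against KO (adjusted p = 0.0281 by edgeR) and had -0.51 in Tg against WT (adjusted p = 0.0653). H4c6 fell by 0.62 in Tg against KO (adjusted p = 0.0434) and had -0.48 in Tg against WT (adjusted p = 0.088). The genes most like Cdkn1c were Tlr4 (r = 0.950), a receptor for bacterial lipopolysaccharide, and Tasor (r = 0.947), a subunit of the HUSH silencing complex, and neither was called. These r values share libraries and their depth, and are given as a description.

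**Figure D5:**
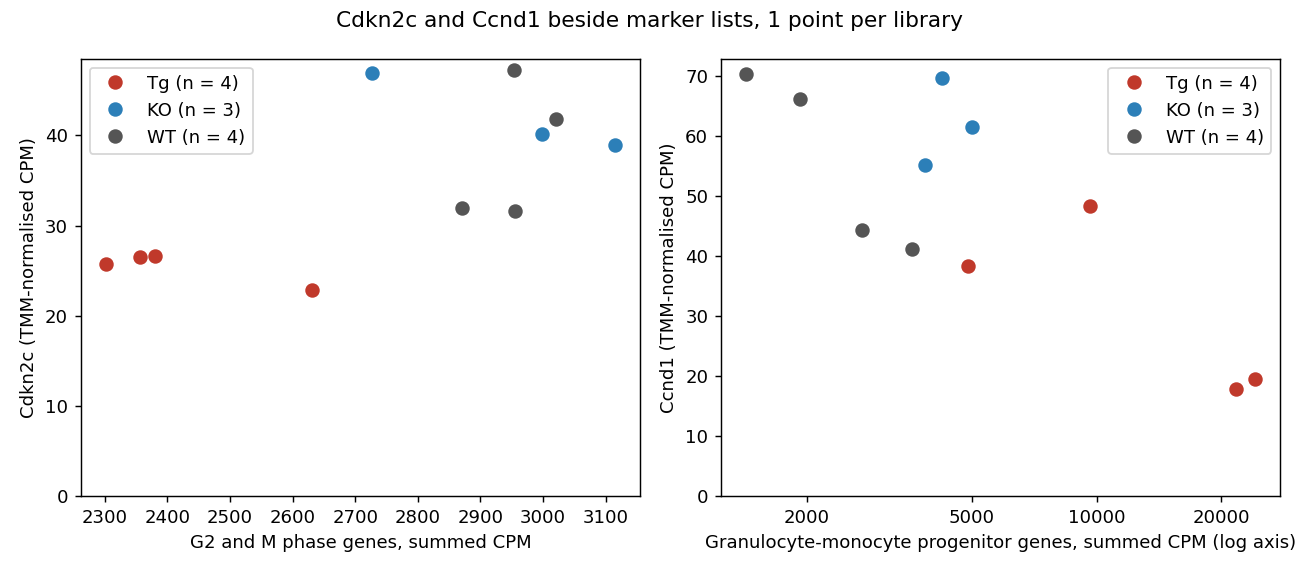
Left, Cdkn2c (CPM, vertical) against the summed CPM of 12 G2 and M phase genes. Right, Ccnd1 against the summed CPM of 8 genes of granulocyte-monocyte progenitors on a log axis; 1 point per library. The Tg points are lowest on both axes at left, and Tg replicates 1 and 2 stand at 24100 and 21657 CPM with Ccnd1 at 19.6 and 17.8 CPM at right.

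Of 46 further genes of the pathway, 44 were tested. In Tg against WT 1 fell and 0 rose, in Tg against KO 1 fell and 0 rose, and in KO against WT 0 passed the test. Of all genes tested, edgeR called 4.92%, 5.69% and 0.0233% in these comparisons. At an unadjusted p under 0.05 there were 13 in Tg against WT, 11 in Tg against KO and 1 in KO against WT, where 22.1%, 21.7% and 7.09% of all genes tested had such a p. DESeq2 called 6 in Tg against WT, 5 in Tg against KO and 0 in KO against WT, where it called 11.1%, 11.2% and 0.576% of all genes tested. Read against these shares, the counts are not a result about the pathway as a whole. The median log2 fold change over the 44 was -0.04 in Tg against WT, -0.10 in Tg against KO and 0.02 in KO against WT.

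Among 13 pocket proteins and E2F factors, Tfdp2, a partner that E2F factors need to bind DNA, had 114.8, 115.2, 126.5 and 129.2 CPM in Tg libraries, against 149.4, 141.7 and 161.0 CPM in KO libraries and 174.4, 152.8, 141.6 and 148.9 CPM in WT libraries. All Tg libraries lay below all others. Tfdp2 fell by 0.35 on the log2 scale in Tg against WT (SE 0.08, adjusted p = 0.0339) and had -0.31 in Tg against KO (SE 0.09, adjusted p = 0.0566). That call was lost without any one of 6 libraries, at an adjusted p of up to 0.106. E2f2, an activating E2F, had 27.1 ± 8.77 CPM in Tg, 45.7 ± 6.01 CPM in KO and 44.5 ± 13.5 CPM in WT (adjusted p = 0.105 in Tg against WT and 0.106 in Tg against KO by edgeR, and 0.0283 and 0.0352 by DESeq2, which called it in both). Lower p-values than the rest of this list in KO against WT belonged to E2f3 (log2 fold change -0.26, adjusted p = 0.739) and Rbl2 (-0.15, adjusted p = 0.76).

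Among 5 genes of cyclin E and CDK2, Ccna2, the cyclin of S phase and G2, had 157.7, 159.1, 147.9 and 165.1 CPM in Tg libraries, against 208.8, 199.8 and 218.7 CPM in KO libraries and 172.4, 212.8, 218.2 and 170.0 CPM in WT libraries. Here too the Tg libraries were the 4 lowest. Ccna2 fell by 0.41 in Tg against KO (SE 0.10, adjusted p = 0.0352) and had -0.30 in Tg against WT (SE 0.09, adjusted p = 0.0847). The call in Tg against KO was lost without any one KO or Tg library, at an adjusted p between 0.0507 and 0.117. Ccne2 had 23.4 ± 5.49 CPM in Tg, 31.2 ± 6.39 CPM in KO and 30.3 ± 3.07 CPM in WT, without a call.

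In the other lists edgeR called no gene, and DESeq2 called Fbxo31 (adjusted p = 0.0472), Gfi1 (0.0085) and Stat5b (0.00771) in Tg against WT, and Gfi1 (0.0182) and Stat5b (0.0191) in Tg against KO. The adjusted p-values that follow are those of edgeR. The CDK-activating kinase (Cdk7, Ccnh and Mnat1), which phosphorylates the cell-cycle kinases, had log2 fold changes between -0.05 and 0.03 in the 3 comparisons. Among 9 genes of the turnover of p27 and the cyclins, the F-box genes Fbxo31 and Fbxw7 had log2 fold changes of 0.30 and -0.30 in Tg against WT (adjusted p = 0.114 and 0.171), and Skp2, which marks p27 for destruction, had -0.20 in Tg against KO (adjusted p = 0.406). Of the MuvB core, a part of the repressor complex of resting cells, Lin37 had 14.0 ± 1.26 CPM in Tg, 16.8 ± 1.03 CPM in KO and 12.9 ± 1.37 CPM in WT, with a log2 fold change of 0.38 in KO against WT (adjusted p = 0.564). Of 9 upstream transcription factors, Gfi1, a repressor that restrains stem cell division, had 59.0, 55.3, 33.6 and 57.8 CPM in Tg libraries, against 31.6, 31.2 and 31.5 CPM in KO libraries and 33.9, 21.03, 28.9 and 41.1 CPM in WT libraries. Its log2 fold change was 0.72 in Tg against WT (adjusted p = 0.0698) and 0.71 in Tg against KO (adjusted p = 0.0923). Stat5b, a mediator of cytokine signals, had 186.5 ± 11.4 CPM in Tg, 226.2 ± 13.2 CPM in KO and 226.9 ± 18.4 CPM in WT (adjusted p = 0.0601 in Tg against WT and 0.0751 in Tg against KO), and all Tg libraries lay below all others. Trp53 had log2 fold changes of 0.05 in Tg against WT, -0.18 in Tg against KO and 0.24 in KO against WT, with the smallest adjusted p at 0.437. The other genes with the lowest p in their lists were Cdk2, Lin54, Lin9, Rbbp4, Rbx1 and Foxo3, whose smallest adjusted p was the 0.159 of Cdk2 in Tg against KO.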

How the data were processed

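The authors deposited raw counts of reads per gene symbol, not normalised. Per the submitters' processing notes, the tools were FastQC, Trimmomatic, STAR and HTSeq and the build was mm10. Versions, annotation and strand setting: not given in the sources used here. How reads of genes that overlap on opposite strands were counted is therefore not known. Per the labels' protocols, libraries were made from RNA of individual mice, which were taken as replicates.

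One model was fitted to the 11 libraries in edgeR 4.0.16 (R 4.3.3; TMM factors, filterByExpr on the group, no covariate). Each comparison used edgeR's quasi-likelihood test with Benjamini-Hochberg adjustment over 17183 genes, with calls at an adjusted p below 0.05. The biological coefficient of variation was 0.272 in common. Standard errors are log2 fold changes divided by the root of F, and intervals are 95%. CPM values are TMM normalised, except that Xist and the Y-linked genes use library totals. Log2 CPM for likeness used a prior count of 2. The procedure was checked on simulated data first. Gene positions came from GENCODE M21 (GRCm38), and promoter windows from RefSeq.

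The 10 genes, the 46 pathway genes and the marker lists were chosen with earlier results of these data known. Genes named beside the 10 were, per list and comparison, up to 4 called genes with the lowest p or, with none called, the 2 with the lowest p, and the 2 genes most like Cdkn1c and each called member by Pearson's r among genes averaging 5 CPM or more. Skp1 was found under the symbol Skp1a. Top2a, Nusap1, Pcna, LTO1, Mpo, Csf1r and Ly86 were named after their values were seen.

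Alternatives were DESeq2 1.42.0, limma-voom (limma 3.58.1), other scaling factors, other filters (none, or 2 CPM in 3 libraries), robust empirical Bayes, a block for the replicate number, fits restricted to a pair of groups, a covariate for Y-linked reads, omission of the 3 libraries where Xist and Y-linked reads stood together, each library left out in turn and, chosen after seeing the data, Tg replicates 1 and 2 left out together. Plots were made in Python 3.11.15 with matplotlib 3.10.9.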

Additional observations from a re-analysis of the deposited data

Results flagged for a closer look

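Ccnd2 had 476.2 CPM in WT replicate 1, far from the other WT libraries at 420.1 to 423.8 CPM. It was the one such value among 20 groups of 4 libraries tested with Dixon's criterion, which chance alone meets in about 1 group in 20.

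The change of Cdkn2c from WT differed between Tg and KO. The test of this difference is that of Tg against KO, with a log2 fold change of -0.73 (SE 0.14, adjusted p = 0.0169 by edgeR), and all 4 Tg libraries lay below all 3 KO libraries. The call was lost without KO replicate 1, at an adjusted p of 0.0756 by edgeR. It was also lost with the replicate number as a block and with the Y-linked level as covariate. The same held without the 3 libraries where Xist and Y-linked reads stood together, and without Tg replicates 1 and 2.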

How the results depend on the processing

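Cdkn2c had a log2 fold change of -0.68 to -0.48 in Tg against WT over 24 alternatives (adjusted p 0.00129 to 0.291; the call was lost in 9) and of -0.78 to -0.64 in Tg against KO (adjusted p 0.00014 to 0.14; lost in 5). Of 720 alternatives over the 10 genes and 3 comparisons, 666 kept their direction and side of the threshold, 14 lost a call, 3 gained one and 37 turned direction. None of those 37 was a call, and the cause of the turns was not tested. Depth limits Cdkn1c most, with as few as 88 counts in a library, and Cdkn2a and Cdkn2b could not be tested.

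Members called in Tg against WT (1) became 2 with DESeq2 and 0 with only the 2 groups compared, with the Y-linked level as covariate, without the 3 libraries that held Xist beside Y-linked reads, and with Tg replicates 1 and 2 left out together, and 0 to 1 leaving out each library. In Tg against KO (1) they became 2 with DESeq2, 0 with the covariate, without the libraries with both kinds of read and without Tg replicates 1 and 2, and 0 to 2 leaving out each library. Genes called in KO against WT (4) became 99 with DESeq2, 1 with limma-voom, 1 with only the 2 groups, 2 with the covariate, 1 without Tg replicates 1 and 2, and 1 to 4 leaving out each library. In Tg against WT (846) they became 1912 with DESeq2, 358 with only the 2 groups, 27 without the libraries with both kinds of read, 29 without Tg replicates 1 and 2, and 211 to 1076 leaving out each library. In Tg against KO (978) they became 1922 with DESeq2, 398 with the covariate, 319 without the libraries with both kinds of read, 137 without Tg replicates 1 and 2, and 287 to 1096 leaving out each library.

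Of 10 pairs of same-numbered libraries, 1 had a correlation of deviations from the group means over 0.1 (range -0.47 to 0.21). Pairs with unlike numbers ranged from -0.56 to 0.44. The labels do not say that the numbers pair libraries, and the main fit did not pair them. A batch shared by same-numbered libraries was not tested by these correlations. With the replicate number as a block, 0 members were called in Tg against WT (Cdkn2c -0.58, adjusted p = 0.0905) and 0 in Tg against KO (Cdkn2c -0.69, adjusted p = 0.0726), and 1 gene in KO against WT, 221 in Tg against WT and 303 in Tg against KO. Under the block Tfdp2 (adjusted p = 0.103 in Tg against WT), Ccna2 (0.128 in Tg against KO) and Phf6 (0.0525 in Tg against WT) were also lost, and no other member or named pathway gene changed its call. Cdk4 in KO against WT was -0.017 under the block.

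For the 10 genes, values that turned direction were uncalled log2 fold changes of at most 0.226 in size as reported and 0.458 under the alternative. With upper-quartile factors, Ccnd2 was -0.0087 in Tg against WT, and Ccnh -0.0068 and Cdk7 -0.0069 in KO against WT. With library totals alone, Ccnd2 was -0.033, Cdk6 -0.019 and Cdk7 -0.019 in Tg against WT, Ccnh -0.0096 and Cdk7 -0.0092 in KO against WT, and Mnat1 -0.0053 in Tg against KO. With the Y-linked level as covariate, Ccnd3 was 0.018, Cdk4 -0.045 and Cdkn1b 0.046 in KO against WT, Cdk4 0.060 and Cdkn1c -0.14 in Tg against WT, and Cdk4 0.10 in Tg against KO. Without the libraries with both kinds of read, Cdkn1a was -0.46, Cdkn1b 0.066 and Cdkn2d -0.085 in KO against WT, Cdk6 -0.049 and Ccnh 0.0084 in Tg against WT, and Ccnd3 0.047 and Mnat1 -0.058 in Tg against KO. Without Tg replicates 1 and 2, Ccnd3 was 0.18, Cdkn1b 0.025 and Mnat1 -0.013 in Tg against KO, and Ccnd3 0.12 in Tg against WT.

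Leaving out each library, ranges that crossed 0 in Tg against WT were -0.037 to 0.059 (Ccnd2), -0.16 to 0.035 (Cdk4), -0.059 to 0.095 (Cdk6), -0.24 to 0.35 (Cdkn1c), -0.063 to 0.029 (Ccnh) and -0.017 to 0.072 (Cdk7). In Tg against KO they were -0.22 to 0.052 (Ccnd3), -0.12 to 0.071 (Ccnh) and -0.049 to 0.093 (Mnat1). In KO against WT they were -0.20 to 0.063 (Ccnd3), -0.059 to 0.13 (Cdk4), -0.23 to 0.34 (Cdkn1a), -0.20 to 0.079 (Cdkn1b), -0.059 to 0.24 (Cdkn2d), -0.10 to 0.095 (Ccnh) and -0.035 to 0.10 (Cdk7).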
